A study of Drosophila melanogaster with 4 samples.

Results

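The centromere-proximal ends of chromosome arms 2L, 3L and 3R were taken as the peaks of ASH1 and FSH with a midpoint at or above 21.0 Mb on 2L, at or above 22.5 Mb on 3L, or below 1.5 Mb on 3R, in coordinates of BDGP Release 5. These limits use position alone and no measured value. Together the ends hold 613 of 19572 peaks in the genome, with 326 of 10748 for ASH1 and 287 of 8824 for FSH. The 2L end contributes 101 ASH1 and 94 FSH peaks, the 3L end 62 and 56, and the 3R end 163 and 137. They were compared with the rest of the same 3 arms, which carries 6056 ASH1 and 4907 FSH peaks.

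ASH1 and FSH were mapped by ChIP-seq in untreated S2-DRSC cells, a cultured line derived from Drosophila embryos. There were 4 libraries, with 2 antibodies against ASH1 (ASH1N and ASH1C) and 2 against FSH (labelled FSH-S and FSH-S+L, although the methods assign one of them to the long isoform only). Reads of both antibodies against a protein were merged before peaks were called, so 1 list per protein was analysed and there is no spread between replicates. The lists carry no read counts, so how deeply a peak was sequenced is unknown.

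In Drosophila, the sequence next to the centromere is packaged as pericentric heterochromatin, which is rich in transposons and other repeats and carries methylation of lysine 9 of histone H3 bound by the protein HP1a. Genes are sparser there than on the arms, and several of them need this environment for normal expression. ASH1 is a trithorax group histone methyltransferase that keeps homeotic genes active, and FSH is the fly member of the BET family, whose bromodomains bind acetylated histones. Where exactly the arms pass from euchromatin to heterochromatin in S2-DRSC cells was not measured here, so the ends are named by position and not by chromatin state.

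Each peak has a start, an end and a score, taken here to be the P value of enrichment over input chromatin, log10-transformed and multiplied by -10. Scores start at 50.02, and a value of 3100 is shared by 1965 ASH1 and 1565 FSH peaks, so peaks at 3100 or above are treated as having no order. Scores of different parts were compared within a list only. For paired peaks, the scores of both lists are set side by side and their ranks compared. Whether one protein binds more than the other cannot be read from this. A peak was called shared when it overlapped a peak of the other protein by at least 1 bp. Percentages are given with 95% Wilson intervals, medians with quartiles or an order-statistic interval, and densities with exact Poisson intervals. These intervals cover counting error only and treat peaks as independent, which neighbouring peaks are not. No test between the ends and the rest of the arms was run, because the lists have no replicates.

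Peaks of both proteins were found at all 3 ends, but at different densities. The 3R end had 109 ASH1 peaks per Mb (92.6 to 127) and 91.3 FSH peaks per Mb (76.7 to 108). The rest of 3R had 83.6 and 67.2 per Mb, so the 3R end lay above its own arm in both lists. The 2L end had 51.3 ASH1 peaks per Mb (41.8 to 62.3) and 47.7 FSH peaks per Mb (38.6 to 58.4), against 87.3 and 70.2 on the rest of 2L. Values were lowest at the 3L end, with 30.5 ASH1 (23.4 to 39.1) and 27.6 FSH peaks per Mb (20.8 to 35.8), against 89.6 and 73.8 on the rest of 3L. Over all 3 ends the densities were 59.3 for ASH1 and 52.2 for FSH, against 86.6 and 70.2 on the rest of the arms, but this mean joins ends that lie on opposite sides of the arms' values.

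The ends had the same order by peaks per Mb and by the percentage of their sequence under peaks, but the 2L end lay closer to the arms by percentage. Peaks covered 9.42% (ASH1) and 9.87% (FSH) of the 2L end, close to the 10.5% and 10.2% covered on the rest of the arms, although the 2L end had fewer peaks per Mb. At the 3L end 3.17% and 3.36% of the sequence was covered, and at the 3R end 12.4% and 11.7%.

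The arms were then divided into windows of 500 kb, of which 149 were complete. On the rest of the arms a window held 8 to 80 ASH1 peaks with a median of 42, and 10 to 65 FSH peaks with a median of 34. At the 3R end the window nearest the centromere held 56 ASH1 and 47 FSH peaks, the next 39 and 31, and the third 68 and 59. From the limit towards the centromere, the windows of the 2L end held 41, 23 and 23 ASH1 peaks and 30, 22 and 22 FSH peaks. Those of the 3L end held 34, 9, 12 and 5 ASH1 peaks and 26, 9, 13 and 6 FSH peaks. All complete windows of the 2L and 3R ends lay inside the ranges of the arms, as did those of the 3L end except for FSH from 23.0 to 23.5 Mb and both lists from 24.0 to 24.5 Mb. The window from 24.0 to 24.5 Mb on 3L had the fewest peaks of all 149 windows in both lists.

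**Figure D1:**
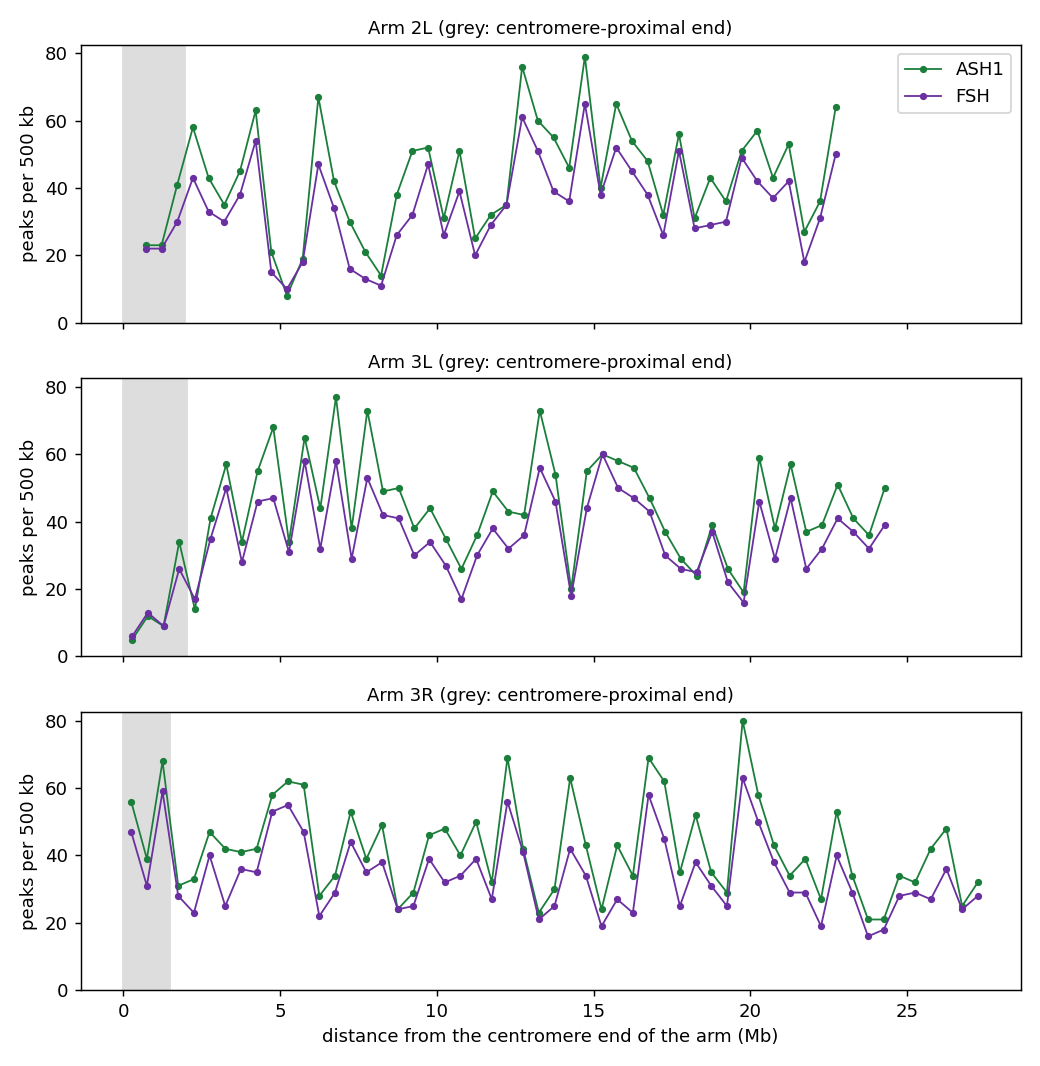
Number of ASH1 (green) and FSH (purple) peaks in each complete 500 kb window of arms 2L, 3L and 3R, plotted against the distance of the window's centre from the centromere end of the arm in Mb, with the centromere-proximal ends in grey and incomplete windows left out. Counts fall to 5 and 6 peaks at the 3L end and to 23 and 22 in the complete windows of the 2L end, whereas the 3R end holds 31 to 68 peaks per window. The incomplete last window of 2L, not drawn, holds 14 ASH1 and 20 FSH peaks.

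Sequence without any peak of either protein was distributed differently at each end. The 3L end had 12 stretches of 50 kb or more without a peak, which made up 71.5% of its length, and 7 of 100 kb or more, which made up 51.8%. On the rest of 3L such stretches covered 29.5% and 10.4%. Stretches of 100 kb or more occurred at 3.45 per Mb at the 3L end (1.39 to 7.10) and at 0.711 per Mb on the rest of the arm (0.406 to 1.15). The longest extended from 22360759 to 22709970, over 349.2 kb, and begins outside the limit. It was followed by 201 kb (24023363 to 24224428) and 196.6 kb (23332911 to 23529487). At the 2L end, 11 stretches of 50 kb or more covered 40.6% of the sequence, against 30.8% on the rest of 2L, and 1 exceeded 100 kb. The 3R end had 2 stretches of 50 kb or more, the longest of 66.0 kb, and they covered 8.07%, against 30.4% on the rest of 3R. An assembly gap, a repeat without placed reads and unbound DNA all look the same in a peak list, and which of these the stretches are was not tested.

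The stretch of more than 100 kb at the 2L end ran from 21397815 to 21553245 and measured 155.4 kb. The replication-dependent histone genes of Drosophila form a long tandem repeat on this arm. A RefSeq table of the later Release 6 lists 111 histone genes there, flanked by nrv3, which encodes a subunit of the sodium-potassium ATPase, and Lamp1, which encodes a lysosomal membrane protein. Positions of Release 6 were not transferred to Release 5, so whether the stretch holds the histone repeat was not tested. The paper mentions ASH1 and FSH signals at histone genes without showing them. Reads with more than 20 matches were discarded in alignment, so a missing peak in a long repeat does not show absence of binding.

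Between these empty stretches, most sites of the 3L end were occupied by both proteins, as on the rest of 3L. When peaks of either list with gaps of at most 1 kb were joined, the 3L end had 52 sites, of which 45 (86.5%) held peaks of both proteins, 4 held ASH1 alone and 3 held FSH alone. Both proteins were present at 81.1% of sites on the rest of 3L. At 33 of the 52 sites (63.5%) there were exactly 2 peaks, with 54.6% on the rest of 3L, and no site had more than 5. The 3R end had 125 sites, 104 of them (83.2%) with both proteins, 19 with ASH1 alone and 2 with FSH alone. At the 2L end 59 of 86 sites (68.6%) held both, 16 ASH1 alone and 11 FSH alone, against 79.9% with both on the rest of 2L. The largest sites of the 2L and 3R ends had 8 peaks each. On the rest of the arms the largest had 18, but among 4537 sites, and a maximum tends to rise with the number of sites. Of the sites with 8 peaks, 2L 21675716 to 21686207, 2L 22128915 to 22136226 and 3R 884779 to 891600 each joined 4 ASH1 and 4 FSH peaks.

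Counted by single peaks, 270 of the 326 ASH1 peaks (82.8%, 78.4 to 86.5) overlapped FSH, with 82.3% on the rest of the arms. Of the 287 FSH peaks, 261 (90.9%, 87.1 to 93.7) overlapped ASH1, with 94.0% on the rest of the arms. The interval for ASH1 includes the value of the arms, and that for FSH ends just below it. Neither is a test, as neighbouring peaks are not independent. For ASH1 the shares were 78.2% at the 2L end (69.2 to 85.2), 88.7% at the 3L end (78.5 to 94.4) and 83.4% at the 3R end (77.0 to 88.4), and all 3 intervals include 82.3%. For FSH they were 84.0% (75.3 to 90.1), 91.1% (80.7 to 96.1) and 95.6% (90.8 to 98.0). FSH peaks without ASH1 numbered 15 at the 2L end, 5 at the 3L end and 6 at the 3R end. Without the 2L end the FSH share was 94.3%, and without the 3R end it was 86.7%.

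**Figure D2:**
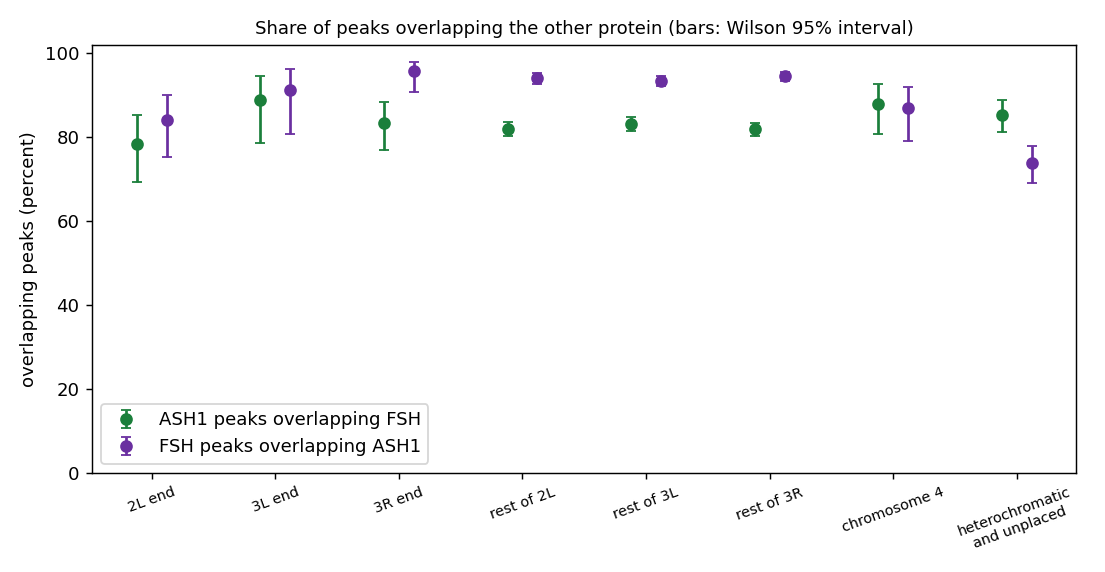
Percentage of ASH1 peaks that overlap an FSH peak (green) and of FSH peaks that overlap an ASH1 peak (purple) at each end, on the rest of each arm, on chromosome 4 and on the heterochromatic and unplaced sequences of the assembly, with points as shares and bars as 95% Wilson intervals. FSH peaks at the 2L end, at 84.0%, lie between the 94.0% of the 3 arms and the 73.7% of the heterochromatic and unplaced sequences.

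Chromosome 4, which is largely heterochromatic, and the sequences assigned to heterochromatin or to no chromosome arm were set beside the ends. On chromosome 4 the shared peaks made up 87.9% of 116 for ASH1 and 86.8% of 106 for FSH. On the heterochromatic and unplaced sequences they made up 85.3% of 341 for ASH1 (81.2 to 88.7) and 73.7% of 384 for FSH (69.1 to 77.9). On these sequences, as at the last part of 2L described next, FSH peaks outnumbered ASH1 peaks.

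FSH peaks without ASH1 at the 2L end lay mainly in its last part. From 22.5 Mb to the last peak there were 20 FSH peaks, of which 10 were shared and 10 were not (interval of the shared percentage, 29.9 to 70.1), and 14 ASH1 peaks, of which 11 were shared. Scores of the 10 unshared FSH peaks ranged from 52.1 to 136, with a median of 91.2, so all of them were weak. Their distance to the nearest ASH1 peak ranged from 0.121 to 59.5 kb, with a median of 6.96 kb. The highest of them, at 22532720 to 22533383 (664 bp, score 136), was also the highest unshared FSH peak of the whole 2L end. The shortest, at 22786189 to 22786385 (197 bp, score 106), was shorter than every other peak of the 3 ends. Of the shared FSH peaks in the same stretch, 5 scored 3100 or above and the other 5 from 66.8 to 1098. ASH1 peaks without FSH at the 2L end lay mostly at its other side, with 13 of 22 between 21.0 and 21.5 Mb, where 29 of 30 FSH peaks were shared. This window also held 41 of the 101 ASH1 peaks of the end. Of these 41, 28 were shared (68.3%), with 82.3% on the rest of the arms. These stretches were singled out after their values were seen.

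Shared peaks had higher median scores than unshared ones at every end, as on the rest of the arms. Shared ASH1 peaks had a median score of 2265 at the 2L end, 1103 at the 3L end and 1445 at the 3R end, whereas unshared ones had medians of 111, 79.6 and 142. For FSH the medians were 2262, 1052 and 902 for shared peaks and 83.1, 128 and 148 for unshared ones. On the rest of the arms, shared and unshared peaks had medians of 1259 and 154 for ASH1, and of 770 and 185 for FSH. All 87 ASH1 and all 59 FSH peaks at 3100 or above were shared, with 99.3% and 98.8% for such peaks on the rest of the arms. At the other end of the scale, only 12 of 37 ASH1 peaks with a score below 100 were shared (32.4%), with 42.6% on the rest of the arms. For FSH this class differed between the ends, with 7 of 18 shared at the 2L end (38.9%, 20.3 to 61.4) and 10 of 12 at the 3R end (83.3%). On the rest of 2L 81.2% of FSH peaks in this class were shared. All 66 FSH peaks of the 2L end with a score of 300 or above were shared.

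At each end, the highest-scoring ASH1 peak without FSH overlap lay near an FSH peak. Joining gaps of at most 1 kb placed it in a site with both proteins. At 21166287 to 21167176 on 2L, an unpaired ASH1 peak measured 890 bp and scored 1371, and at 629907 to 631220 on 3R another measured 1314 bp and scored 1055. On 3L the highest was at 22716897 to 22717805 (909 bp, score 771). The strongest FSH peak without ASH1 scored 405 (3L, 23241801 to 23242718), and its counterparts scored 288 on 3R (76863 to 77454) and 136 on 2L. The median score of unshared peaks over all ends was 119 for ASH1 and 91.2 for FSH.

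**Figure D3:**
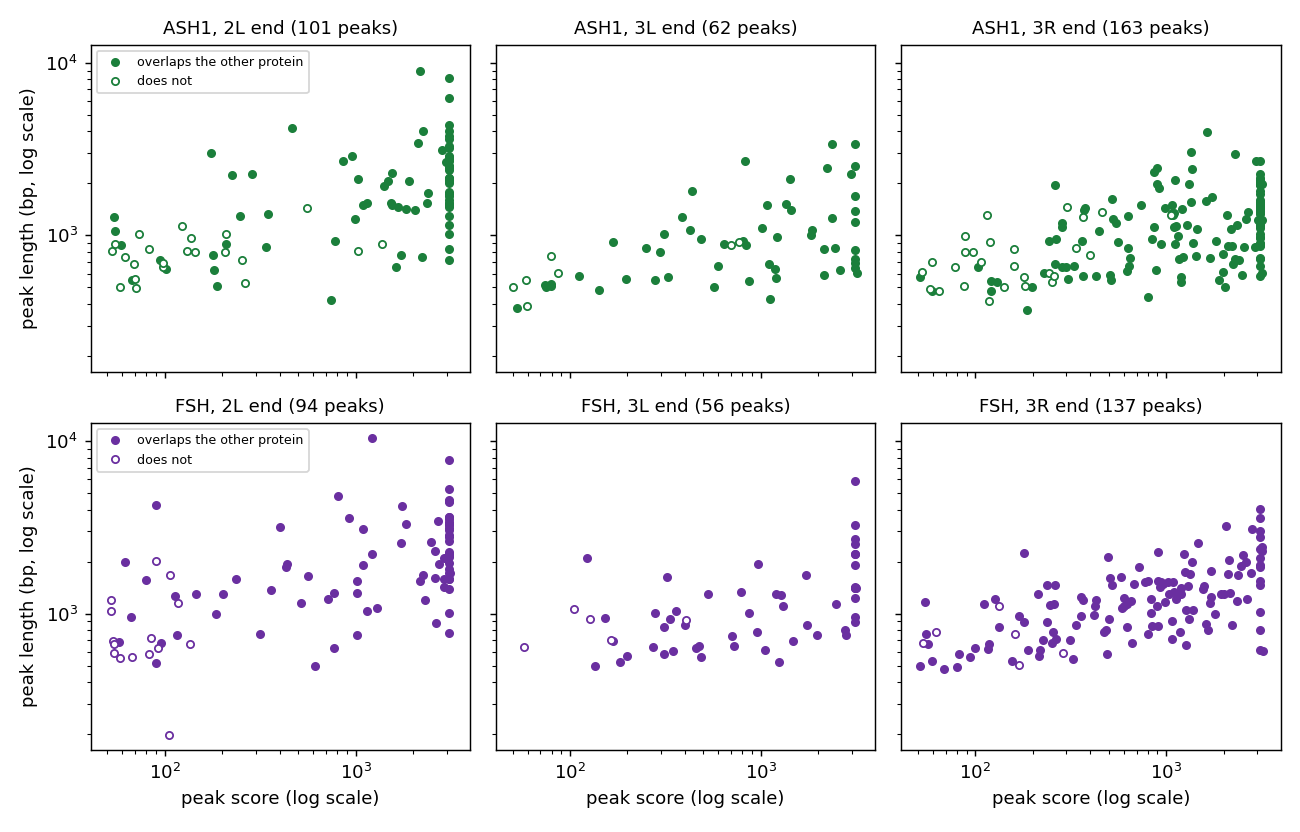
Length in bp against score for every ASH1 peak (green, top) and FSH peak (purple, bottom) of the 2L, 3L and 3R ends, both axes logarithmic, with filled points for peaks that overlap the other protein and open points for those that do not. Open points gather at low scores, with maxima of 1371 for ASH1 and 405 for FSH, and the column of points at 3100 holds filled points only.

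Peaks of the highest score class were unevenly divided among the ends. Of all ASH1 peaks at the ends 26.7% (22.2 to 31.7) had a score of 3100 or above, with 20.2% on the rest of the arms, and of all FSH peaks 20.6% (16.3 to 25.6), with 19.4%. At the 2L end it was 35 of 101 ASH1 peaks (34.7%, 26.1 to 44.3) and 29 of 94 FSH peaks (30.9%, 22.4 to 40.8). Both of these intervals lie above the values of the arms, and both include those of chromosome 4, at 26.7% and 36.8%. At the 3L end it was 10 of 62 ASH1 peaks (16.1%, 9.00 to 27.2) and 14 of 56 FSH peaks (25.0%, 15.5 to 37.7). At the 3R end 42 of 163 ASH1 peaks (25.8%, 19.7 to 33.0) but 16 of 137 FSH peaks (11.7%, 7.32 to 18.1) reached this class.

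The 2L end also had many weak peaks. Scores below 100 were found for 16 ASH1 peaks (15.8%) and 18 FSH peaks (19.1%), with 9.61% and 9.58% on the rest of the arms. The heterochromatic and unplaced sequences had similar shares of 15.5% and 16.9%, and chromosome 4 had 15.5% and 7.55%. At the 3L end 10 ASH1 peaks (16.1%) but only 1 FSH peak (1.79%) scored below 100, and at the 3R end 11 (6.75%) and 12 (8.76%). Over all ends it was 37 ASH1 peaks (11.3%) and 31 FSH peaks (10.8%). The quartiles of the 2L end were accordingly far apart. The ASH1 median was 1551 with quartiles of 206 and 3100, and the FSH median was 1186 with quartiles of 138 and 3100. Median scores were 853 and 910 at the 3L end, 1128 and 831 at the 3R end, and 929 and 713 on the rest of the arms.

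Peaks at the 2L end were long. The median length of its ASH1 peaks was 1489 bp (interval 1248 to 1728) and that of its FSH peaks 1636 bp (1382 to 1927), against 926 and 1072 bp on the rest of 2L. The quartiles were 834 and 2310 bp for ASH1 and 1038 and 2748 bp for FSH. Lengths of 2 kb or more were found for 37 of 101 ASH1 peaks (36.6%, 27.9 to 46.4) and 35 of 94 FSH peaks (37.2%, 28.1 to 47.3). On the rest of the arms such peaks made up 12.5% and 17.4%. At the 3L end they were 7 ASH1 (11.3%) and 7 FSH peaks (12.5%), and at the 3R end 14 (8.59%) and 17 (12.4%). Over all ends this gave 58 ASH1 (17.8%) and 59 FSH peaks (20.6%). Median lengths were 838 and 939 bp at the 3L end and 970 and 1166 bp at the 3R end. On chromosome 4 they were 745.5 and 929.5 bp, and on the heterochromatic and unplaced sequences 615 and 657 bp. Peaks of 2 kb or more were less frequent there than at the 2L end, but not absent. They made up 6.03% (ASH1) and 10.4% (FSH) on chromosome 4, and 3.52% and 5.47% on the heterochromatic and unplaced sequences. The longest ASH1 peak of the latter measured 8089 bp.

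As stronger peaks tend to be longer, lengths were also compared within classes of score. Peaks of the 2L end had the higher median in all 5 classes of both lists. ASH1 peaks at 3100 or above had a median of 2135 bp at the 2L end and 1379 bp on the rest of 2L, and those from 300 to 1000 had medians of 1337 bp (9 peaks) and 898.5 bp. In the lowest class, from 50 to 100, the medians were 735 bp and 564.5 bp. FSH peaks at 3100 or above had medians of 2786 and 2345.5 bp, and those from 100 to 300 medians of 1207 bp (10 peaks) and 820 bp. In the lowest FSH class the medians were 687.5 and 634 bp, the closest of all classes.

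Long peaks were most frequent between 21.5 and 22.5 Mb. There, 24 of 46 ASH1 peaks (52.2%) and 23 of 44 FSH peaks (52.3%) measured 2 kb or more, and 18 and 16 had scores of 3100 or above. In the window from 21.5 to 22.0 Mb median lengths were 2086 bp (ASH1) and 2436 bp (FSH), and from 22.0 to 22.5 Mb it was 2060 and 1953.5 bp. These were the highest and second highest medians in both lists among the 146 (ASH1) and 147 (FSH) complete windows with at least 10 peaks. Windows on the rest of the arms had medians from 650 to 1534 bp for ASH1 and from 686.5 to 1745 bp for FSH. The same windows were high in score. Median scores from 21.5 to 22.0 Mb were 2355 for ASH1 and 2665 for FSH, the highest in both lists, and those from 22.0 to 22.5 Mb were 1634 and 2442, in places 6 and 2. The neighbouring window towards the arm, from 21.0 to 21.5 Mb, had median lengths of 1149 and 1351.5 bp, and the last part of the arm 1187 and 1226 bp, with 4 of 14 ASH1 (28.6%) and 5 of 20 FSH peaks (25.0%) of 2 kb or more. The bounds of this stretch were chosen after its values were seen.

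**Figure D4:**
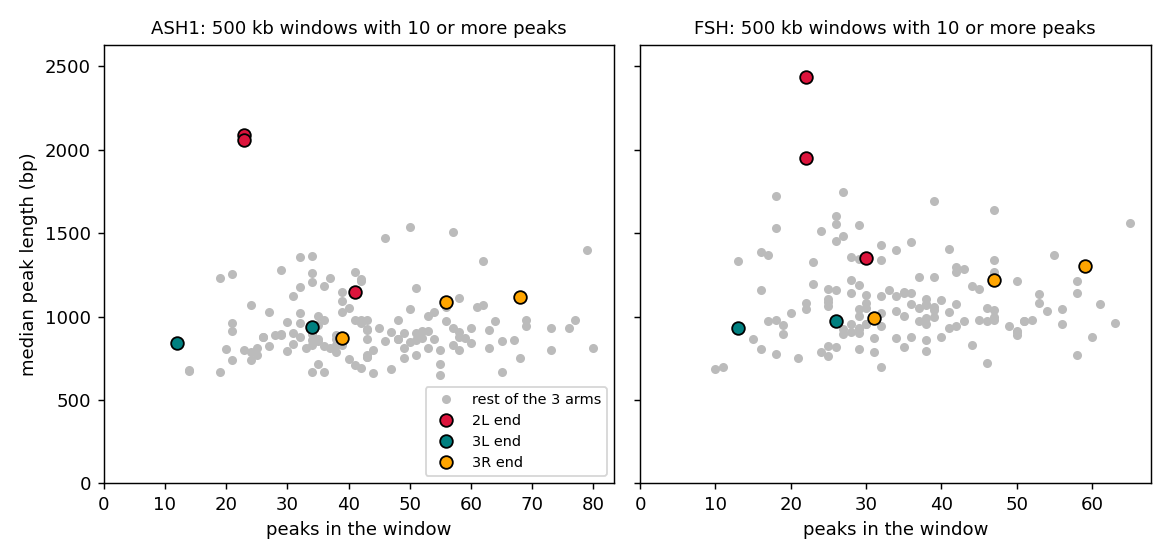
Median peak length in bp against the number of peaks for each complete 500 kb window with at least 10 peaks on the 3 arms, for ASH1 (left) and FSH (right), with windows of the rest of the arms in grey and those of the ends in colour. The windows of 2L from 21.5 to 22.5 Mb, at 2086 and 2060 bp for ASH1 and 2436 and 1953.5 bp for FSH, lie above all grey points, whose highest values are 1534 and 1745 bp.

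The longest peak of each list at the ends was at the same place on 2L. The ASH1 peak from 22174804 to 22183753 measured 8950 bp (score 2189), and the FSH peak from 22172735 to 22183161 measured 10427 bp (score 1220). Among all peaks of the 3 arms they held places 7 and 11 in length. Next in length for both lists was the pair at 22425503 to 22433683 (ASH1, 8181 bp) and 22425943 to 22433647 (FSH, 7705 bp), both with a score of 3100. The third longest ASH1 peak, from 21827033 to 21833262, measured 6230 bp. The longest peaks of the other ends were shorter, with 3363 bp for ASH1 (3L, 22815312 to 22818674) and 5822 bp for FSH (3L, 22937444 to 22943265). On 3R the ASH1 peak from 234641 to 238629 (3989 bp) and the FSH peak from 234627 to 238683 (4057 bp) had nearly the same borders. Of the 50 longest peaks on the 3 arms, 3 ASH1 and 2 FSH peaks lay at the ends, all on 2L, where the ends held 5.11% and 5.53% of the peaks of these arms.

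Within each list, the share of peaks lying in groups was close to that of the arms. Groups of at least 2 peaks of one protein with gaps of at most 1 kb included 129 ASH1 peaks (39.6%) and 101 FSH peaks (35.2%), with 43.6% and 35.3% on the rest of the arms. At the single ends these shares were 39.6% and 41.5% on 2L, 38.7% and 28.6% on 3L, and 39.9% and 33.6% on 3R. A broad site can be listed as 1 long peak of one protein and as several of the other. An FSH peak with more than 1 ASH1 peak occurred 13 times at the ends (4.53%), with 9.03% on the rest of the arms, and an ASH1 peak with more than 1 FSH peak 5 times (1.53%), with 2.54% on the rest of the arms.

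Where exactly 1 ASH1 peak overlapped 1 FSH peak, their borders were close together. There were 69 such pairs at the 2L end, 47 at the 3L end and 125 at the 3R end, and 3931 on the rest of the arms. The median distance between starts was 84 bp at the 2L end, 36 bp at the 3L end and 60 bp at the 3R end, and between ends of the peaks 93, 42 and 52 bp. Both medians were 56 bp on the rest of the arms. The part common to both peaks made up a median of 84.3%, 87.4% and 85.8% of their union, and 85.8% on the rest of the arms, so that the long pairs of 2L overlapped to a similar extent as shorter pairs elsewhere. Spearman's rho between the lengths of paired peaks was 0.92, 0.90 and 0.88, and 0.87 on the rest of the arms. These are descriptions over sites that share libraries and input.

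Scores were converted to ranks within each complete list, and the ranks of paired peaks were compared. Pairs in which both peaks scored 3100 or above have no order and were left out. ASH1 ranked higher at 83 of the remaining 117 pairs of the 3R end (70.9%, 62.2 to 78.4), at 33 of 53 of the 2L end (62.3%, 48.8 to 74.1) and at 17 of 44 of the 3L end (38.6%, 25.7 to 53.4). The shares were 64.3% (62.7 to 65.9) on the rest of the arms and 62.1% (59.3 to 64.8) on the rest of 3L. The interval of the 3L end lies below that of its own arm, whereas those of the 2L and 3R ends include the value of the arms. These intervals treat neighbouring pairs as independent, so this describes the lists and is no test between the parts. Both peaks reached 3100 or above at 16 pairs of the 2L end (23.2%), 3 of the 3L end (6.38%) and 8 of the 3R end (6.4%), with 7.73% on the rest of the arms. ASH1 alone reached this class at 15, 5 and 33 pairs, and FSH alone at 10, 8 and 7. Spearman's rho between the scores of paired peaks was 0.60 on 2L, 0.57 on 3L and 0.53 on 3R, and 0.44 on the rest of the arms, with scores above 3100 set to 3100.

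Single pairs departed far from this relation. At 21155625 to 21157163 on 2L the ASH1 peak had a score of 3100, while the FSH peak at 21155575 to 21157129 had one of 79.9. On 3R an ASH1 peak at 1124579 to 1125243 with a score of 328 lay over an FSH peak at 1124608 to 1125213 with a score of 3230. Further along 3R the reverse was found, with an ASH1 score of 2915 (1219273 to 1220125) and an FSH score of 133 (1219317 to 1220157). In all of these pairs the borders nearly coincided. These pairs were chosen after their values were seen.

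**Figure D5:**
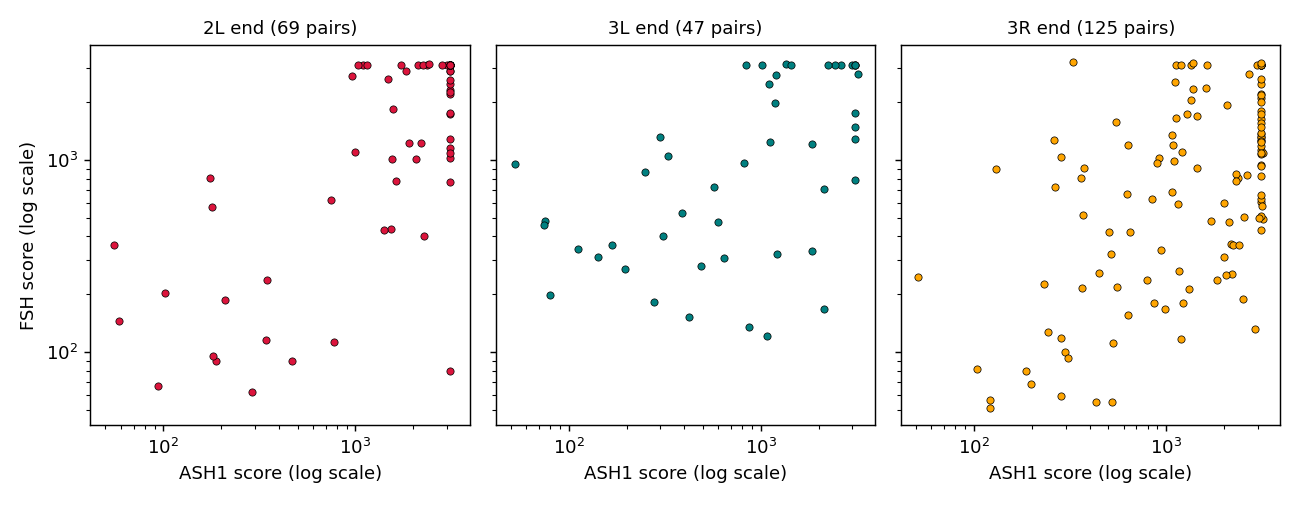
FSH score against ASH1 score, both on logarithmic axes, for each pair of 1 ASH1 peak and 1 FSH peak at the 2L (69 pairs), 3L (47) and 3R (125) ends. Points at the right edge are ASH1 peaks at 3100 or above, and at the 3R end 33 of them pair with an FSH peak below 3100, compared with 7 pairs in which FSH alone reaches that value.

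The peaks closest to the centromere were occupied by both proteins on every arm. On 2L the last pair was an ASH1 peak from 22966248 to 22969228 (2981 bp, score 176) within an FSH peak from 22964507 to 22969305 (4799 bp, score 804). Next to it, at the gene Spf45, which encodes a splicing factor, the ASH1 peak from 22959701 to 22962376 and the FSH peak from 22959104 to 22962398 both had a score of 3100. The position of this gene was read by eye from a genome browser view. The FSH peak also covered a weak ASH1 peak (553 bp, score 67.1). Another pair lay to its left, with scores of 993 for ASH1 and 1098 for FSH (FSH, 22957067 to 22958988), so that 5 peaks formed 1 site, separated by 72.2 kb from the nearest peak towards the arm. In the Release 6 table, Spf45 is flanked by Cht10, which encodes a chitinase, and CG12567.

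On 3L the last pair, 24530132 to 24530814 for ASH1 and 24530143 to 24531285 for FSH, had scores of 1103 and 2468. At a second pair, less than 1 kb away and in the same site, the order of the scores was reversed. It had 3100 for ASH1 (24528931 to 24529575) and 1476 for FSH (24528916 to 24529609). The third pair was separated from these by 69.7 kb without a peak. It consisted of an ASH1 peak of 1495 bp (24457121 to 24458615, score 1074) and an FSH peak of 2095 bp (24457134 to 24459228, score 122). All 7 ASH1 peaks of 3L beyond 24.0 Mb were shared, and they belonged to 5 sites with 69.7 to 201 kb of empty sequence between neighbours.

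On 3R the first pair lay at 12456 to 13590 (ASH1, score 1128) and 12770 to 13576 (FSH, score 3100). It was followed by a weak pair at 21542 to 22016 (ASH1, score 121) and 21533 to 22027 (FSH, score 51.3), and by a strong one at 22559 to 23764 (ASH1, score 3100) and 22543 to 23759 (FSH, score 1128). In the window of the 3R end farthest from the centromere, from 1.0 to 1.5 Mb, all 59 FSH peaks overlapped ASH1, and this window was in place 9 for ASH1 and in place 5 for FSH among the 149 windows by number of peaks.

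The peaks next to the limits are given as a description of where the ends begin. At 2L the ASH1 peaks just inside and just outside the limit had scores of 70.8 and 60.8 and were both unshared, and the FSH peaks had scores of 520 and 289. At 3R they had scores of 867 and 3100 for ASH1 and 262 and 60.8 for FSH. At 3L the limit falls into the longest empty stretch of that end, and the nearest peaks scored 3100 and 159 for ASH1 and 1281 and 267 for FSH.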

How the data were processed

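The authors aligned single reads of 36 bp to BDGP Release 5 with Bowtie 0.12.7, discarding reads with more than 20 matches and placing the others at 1 match, merged the alignments of both antibodies against each protein with SAMtools 0.1.9, and used MACS 1.4.0 with input chromatin as control and a P value cut-off of 1e-05. In repeat-rich sequence a read can therefore lie at another copy than its own. Whether this bears on the ends was not tested. The deposited lists give a start, an end and a score for each peak. Columns are not named in the files. From its minimum of 50.02, the score was taken to be log10 of the P value multiplied by -10. No other column was used.

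Starts were converted to positions counted from 1. Peaks were assigned to the ends by their midpoint, and the last peak of either protein was used as the end of the arm, at 22969305 on 2L and 24531285 on 3L. Libraries were grouped by protein as pooled. Shares, medians, densities, overlaps, groups of peaks, empty stretches and 500 kb windows were calculated with Python 3.11.15, numpy 2.4.6, pandas 2.3.3 and scipy 1.17.1, and plots were drawn with matplotlib 3.10.9. The functions for overlap and groups were tested on simulated lists, and 2 of 2 overlap counts equalled those of BEDTools 2.31.1. No p-values were calculated, because the lists have no replicates. The peaks named are the 3 nearest the centromere, the longest and the highest-scoring unshared peak of each end and list, the largest groups, the peaks at Spf45 and those beside the limits. Others are named as chosen after their values were seen. The members, lists and thresholds were chosen with earlier results of these data known. Gene names come from a RefSeq table of Release 6, of which no coordinates were used. Neither a genome nor an annotation of Release 5 was used, so sequences and gene features under the peaks are not given. Alternatives were moved limits, each arm left out, a stricter overlap, a higher minimum score, another gap, merged neighbours and peaks below 3100 alone.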

Additional observations from a re-analysis of the deposited data

How the results depend on the processing

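Of 78 recalculated values for the ends together, 53 stayed within the 95% interval of the reported value, and the others moved. With the limits moved outward by 500 kb, 12 of 12 stayed, but these limits keep every peak of the ends. A stricter overlap can only lower the share overlapping, and a wider gap can only raise the share in groups. Merging neighbours or raising the minimum score can only lower a density, and leaving out peaks at 3100 or above can only lower a median score. The total is therefore no measure of stability. With the limits moved inward, peaks per Mb were 45.7 for ASH1 and 43.0 for FSH, and the FSH share overlapping ASH1 was 85.5%. Without 2L the FSH share overlapping ASH1 was 94.3%, the FSH share at 3100 or above 15.5% and the median FSH length 1107 bp. Without 3L the densities were 76.1 and 66.6 peaks per Mb. Without 3R they were 40.7 and 37.5, the FSH share overlapping ASH1 was 86.7%, the FSH share at 3100 or above 28.7% and the median FSH length 1317 bp. An overlap of at least 50% of both peaks gave shares of 74.5% for ASH1 and 84.7% for FSH. With a minimum score of 100 the ASH1 density was 52.5 per Mb and the FSH share in groups 28.1%. Counting peaks with gaps of at most 1 kb as 1 gave 46.0 and 42.2 per Mb and median lengths of 1329 and 1457 bp. A gap of 2 kb raised the shares in groups to 53.4% and 48.1%, and leaving out peaks at 3100 or above lowered the median scores to 625 and 582. The values for all ends together thus depend on which arms are included, so each end was also described alone. No paired analysis was possible because each list pools both antibodies. Depth cannot be read from the lists, so a missing peak does not show absence of binding.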
